A study of Mus musculus with 8 samples.

Results

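Genes of the lysosome were compared between hearts deficient in HDAC3 and wild type hearts. The set held 32 cathepsins, hydrolases and lysosomal membrane or lipid-handling genes, listed by name, and every gene whose symbol starts with Atp6v0 or Atp6v1, which encode the vacuolar proton pump. Together these were 53 of the 19933 genes with a transcript cluster (the array's gene-level probe set) of their own. Of the 53, 7 were set apart as macrophage-type (Ctss, Ctsc, Ctsh, Ctsz, Lgmn, Grn and Atp6v0d2), 26 were general lysosome genes and 20 were the other pump genes. The 7 are known from macrophages, microglia or osteoclasts, and were chosen with earlier results of these data known. The split is a choice of genes and not a measured boundary between cell types. Ctsk, also known from osteoclasts, was kept with the general genes.

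Whole hearts of male C57BL/6 mice on normal chow were taken at 6 weeks of age, from 4 knockouts labelled MCH3-KO or deficient of HDAC3 (KO) and 4 wild type mice (WT). Each heart gave 1 Affymetrix Mouse Gene 1.0 ST array, and the replicate numbers come from the sample titles. HDAC3 removes acetyl groups from histones as part of corepressor complexes. The labels do not spell out MCH3, and the sources used here do not give the heart cells in which the gene was removed. Values below are log2 intensities, each difference is the KO mean minus the WT mean of these (log2 units), and n = 4 arrays per group. A gene is said to have risen or fallen only where its Benjamini-Hochberg adjusted p in limma, over all genes tested, was under 0.05.

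The lysosome is the acidic compartment in which cells break down proteins, glycans, lipids and glycogen delivered by endocytosis and autophagy. The proton pump, built of a membrane sector (V0) and a cytosolic sector (V1), acidifies it, and most lysosomal hydrolases reach it through the mannose 6-phosphate pathway. Heart muscle depends on this route, as cardiomyopathies of inherited lysosomal disease in people show. Macrophages are rich in lysosomes and carry some of these enzymes at much higher levels than other cells.

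Median intensities of the 8 arrays lay between 54.1 and 56.5, and no 2 arrays held identical values. Hdac3, the targeted gene, had 8.59, 8.59, 8.59 and 8.50 in KO hearts, against 10.14, 10.04, 10.20 and 10.04 in WT hearts. On the log2 scale Hdac3 fell by 1.54 (SE 0.05, adjusted p = 9.19e-08, limma), so each array matched its label. The cardiomyocyte marker Myh6, named as a check of the tissue, was bright, at a mean of 12.91 in KO and 12.99 in WT hearts. Of all 14950 genes tested, 24.6% changed, 10.8% upward and 13.9% downward, and the groups did not overlap for 28.6%. The median difference of all genes was -0.01.

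Lysosome genes changed in both directions. Of 51 members tested, 17 rose and 8 fell, or 49.0% against the 24.6% of all genes. All 25 called members, and 7 of the 26 that were not called, had no overlap between KO and WT arrays. These were 32 of the 51 tested, beside 28.6% of all genes. The rises took in each of the 6 macrophage-type genes tested, while the general genes and the pump were divided. As the groups were drawn with earlier results of these data known, this contrast is a description and not a test. The median difference was 0.68 for the macrophage-type genes, 0.02 for the general genes and -0.07 for the pump, beside -0.01 for all genes. Without KO replicate 4 the pump median was -0.02, and leaving out single arrays gave 0.0024 to 0.0448 for the general genes (the highest without WT replicate 2). Members varied little within a group, with a median SD of 0.07 in KO and 0.06 in WT hearts.

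Cathepsin S (Ctss), a cysteine protease by which antigen-presenting cells trim the invariant chain of MHC class II, had the largest difference of the set. It was 8.57, 8.72, 8.45 and 8.23 in KO hearts, against 6.79, 7.01, 7.16 and 7.04 in WT hearts. Every KO array lay more than a log2 unit above every WT array. Ctss rose by 1.49 (SE 0.11, 95% interval 1.26 to 1.73, adjusted p = 8.78e-06, limma), a 2.82-fold level, and ranked 26 among all 14950 genes by rise.

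Cathepsin C (Ctsc), a dipeptidyl peptidase that activates granule proteases of immune cells, was 10.01, 10.07, 10.05 and 9.88 in KO hearts, against 9.03, 9.11, 8.97 and 8.89 in WT hearts. The groups were well apart, with KO replicate 4 the lowest KO heart. Ctsc rose by 1.00 (SE 0.06, 95% interval 0.86 to 1.14, adjusted p = 4.04e-06). Cathepsin Z (Ctsz), a carboxypeptidase, was 8.92, 8.94, 8.95 and 8.80 in KO hearts, against 8.0, 8.33, 8.17 and 8.0 in WT hearts. It rose by 0.77 (SE 0.08, adjusted p = 7.54e-05), with the WT hearts more spread than the KO hearts. Progranulin (Grn), a secreted glycoprotein that is cut into granulins in the lysosome, was 10.22, 10.25, 10.21 and 10.14 in KO hearts, against 9.48, 9.72, 9.68 and 9.60 in WT hearts. The difference was 0.59 (SE 0.06, adjusted p = 8.10e-05), without overlap.

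Legumain (Lgmn), the asparaginyl endopeptidase that processes cathepsin precursors, was 9.80, 9.81, 9.84 and 9.62 in KO hearts, against 9.06, 9.36, 9.30 and 9.10 in WT hearts. It rose by 0.56 (SE 0.08, adjusted p = 0.000628), and its lowest KO heart was above its highest WT heart. Cathepsin H (Ctsh), an aminopeptidase, had the smallest rise of the group, 0.30 (SE 0.07, adjusted p = 0.00932). The seventh gene, Atp6v0d2, encodes a d subunit of the pump that is abundant in osteoclasts and macrophages. It lay below the filter on dim genes, at 4.45, 4.28, 4.21 and 4.53 in KO hearts, against 3.96, 4.00, 4.24 and 4.08 in WT hearts. Those ranges overlapped, and with no filter its difference was 0.29 (SE 0.09, adjusted p = 0.0372).

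**Figure D1:**
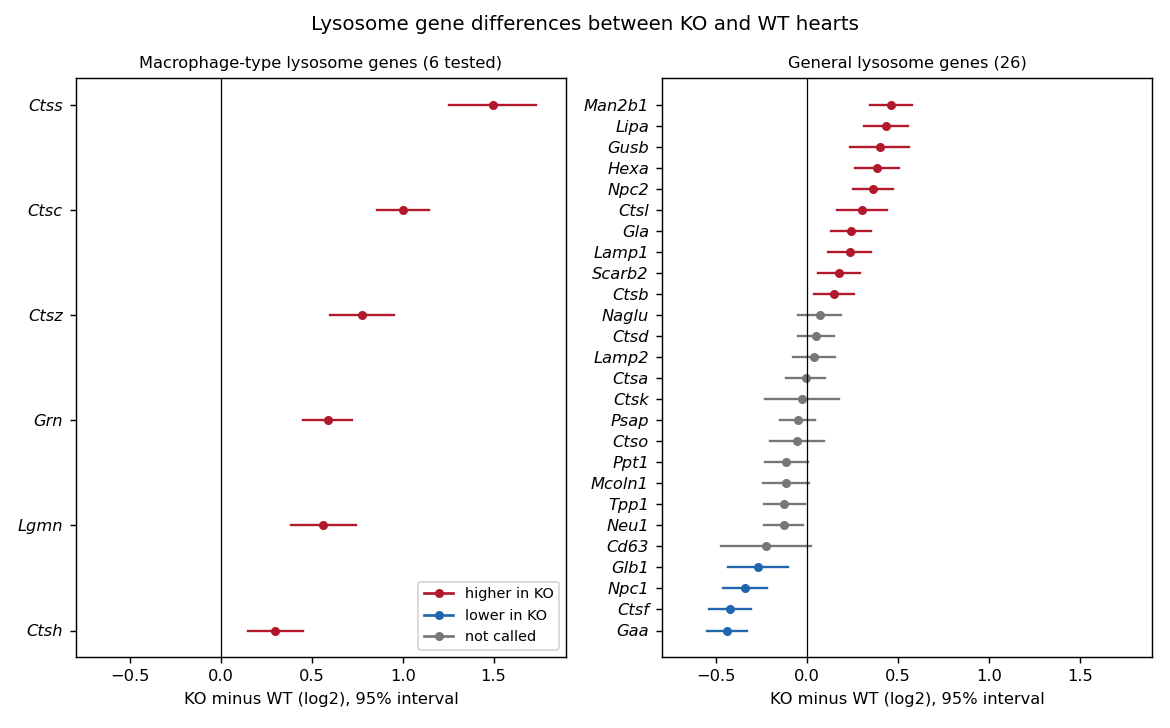
Differences of the macrophage-type (left) and general (right) lysosome genes, as KO minus WT log2 values, drawn as points with 95% intervals from limma, coloured by call. The 6 macrophage-type genes lie between 0.30 and 1.49, and the 26 general genes lie on both sides of 0, between -0.44 and 0.46.

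Ctss and Ctsk are next to each other in the order of protein-coding genes on chromosome 3 in the RefSeq gene table of assembly GRCm38.p6. Cathepsin K (Ctsk), the collagen-cutting protease of osteoclasts and fibroblasts, averaged 6.26 ± 0.07 in KO and 6.28 ± 0.20 in WT hearts (SD, n = 4). Its difference was -0.03 (SE 0.09, adjusted p = 0.87, limma), beside the 1.49 of Ctss. In the same way Atp6v0a1 and Naglu are neighbours on chromosome 11, with differences of -0.46 and 0.07.

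Markers of macrophages moved with this group. All 18 listed rose (100% called, against 24.6% of all genes), with a median of 1.32 and a range of 0.40 to 1.54. Aif1 passed the filter only through its KO values. The groups did not overlap for 17 of the 18, beside 28.6% of all genes. Cx3cr1, the exception, had the smallest rise, 0.40 (adjusted p = 0.0485, limma). The summed intensity of the 18 markers was 10326 to 13124 in KO hearts, against 4500 to 5055 in WT hearts. In a bulk sample more cells of a type and more RNA per cell cannot be told apart.

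Adgre1, an adhesion receptor that defines macrophages, was 8.87, 8.84, 8.88 and 8.74 in KO hearts, against 7.13, 7.60, 7.22 and 7.23 in WT hearts. The receptor Csf1r was 9.55, 9.59, 9.54 and 9.44 in KO hearts, against 8.10, 8.40, 8.19 and 8.18 in WT hearts. In both genes KO replicate 4 was the lowest KO heart and WT replicate 2 the highest WT heart. The lysosomal membrane protein Cd68 was 9.05, 9.02, 8.96 and 8.87 in KO hearts, against 7.37, 7.72, 7.55 and 7.42 in WT hearts. Lysozyme 2 (Lyz2) was 11.12, 11.18, 11.11 and 10.93 in KO hearts, against 9.56, 9.71, 9.69 and 9.73 in WT hearts. These 4 markers differed by 1.31 to 1.54, with no overlap.

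The mean over the macrophage-type lysosome genes, relative to WT, was 0.81, 0.87, 0.83 and 0.64 in the KO hearts, against -0.10, 0.09, 0.07 and -0.06 in the WT hearts. The mean over macrophage markers was 1.27, 1.26, 1.24 and 1.02 in the KO hearts, against -0.10, 0.08, 0.03 and -0.01 in the WT hearts. In both lists KO replicate 4 was the lowest KO heart, as it was for 6 of 6 macrophage-type, 17 of 26 general and 10 of 19 pump genes. The part of macrophage RNA in these differences was not tested. None of the neutrophil, lymphocyte and mast cell markers tested changed in limma (0 of 3, 0 of 3 and 0 of 4), and 5 of 8, 5 of 8 and 2 of 6 genes of these lists lay below the filter. Of fibroblast markers 3 of 8 rose, of endothelial markers 1 of 7 rose, and of cardiomyocyte markers 3 of 10 fell. The shares called were 37.5%, 14.3% and 30%, beside 24.6% of all genes. The summed intensity of the 10 cardiomyocyte markers was 71336.5 to 72459.7 in KO hearts, against 75076.3 to 76212.9 in WT hearts. The groups did not overlap for 8 of the 10, beside 28.6% of all genes. Of the 10 differences, 7 were negative and 3 positive.

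**Figure D2:**
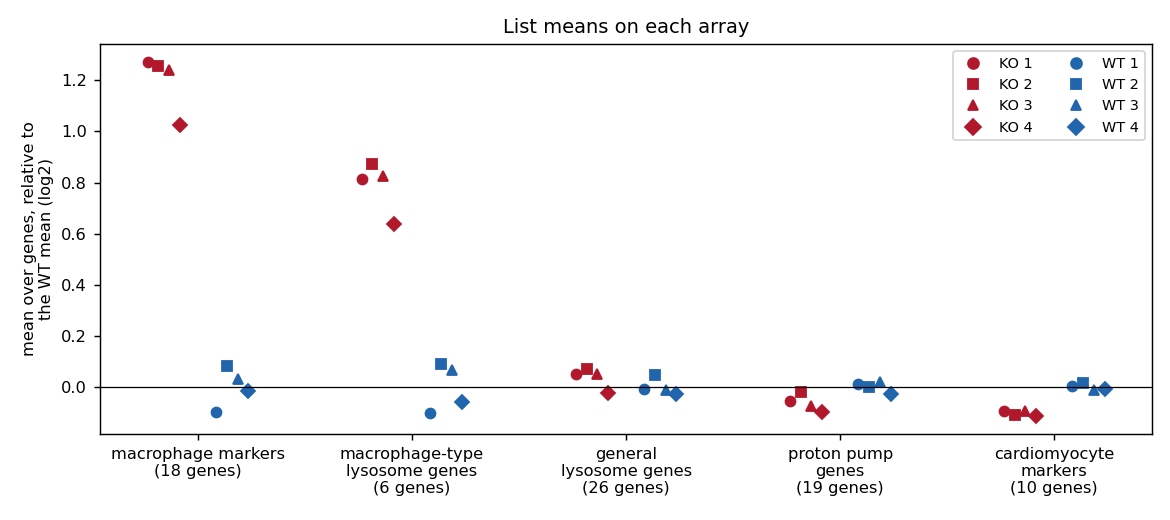
Mean over the genes of each list on each array, relative to the mean of the WT arrays, on the log2 scale, with KO left of WT and a symbol for each replicate. Macrophage markers and macrophage-type lysosome genes are high in all 4 KO hearts and lowest of these in KO replicate 4 (1.02 and 0.64). The mean over the general genes overlaps between the groups. Taken gene by gene, the groups do not overlap for 18 of the 26 general genes, beside 28.6% of all genes.

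Promoters in RefSeq's table (250 bases before to 50 after the annotated start, GRCm38.p6) were found for 44 of the 53 members. GAGGAAGT, a sequence of the kind bound by the myeloid factor PU.1, was in the promoter of 4 of the 44 on either strand (9.09%), against 3.69% of all 27025 genes in the table. All 4 were members that rose: Ctss, Ctsc, Gusb and Gla. They were 4 of the 15 risen members with a promoter in the table (26.7%). Of the 5 macrophage-type genes with a promoter, 2 held the motif (40%). A relation of the motif to the rises was not tested. Promoter stretches of the protease genes with the largest rises are shown, 5′ to 3′ on the gene's strand, with the motif (here read from the other strand) in capitals.

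Ctss, chr3:95526758-95526791, + strand: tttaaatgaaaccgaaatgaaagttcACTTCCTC

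Ctsc, chr7:88277908-88277967, + strand: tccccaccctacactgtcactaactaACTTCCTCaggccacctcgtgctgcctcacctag

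Among the 26 general genes, 10 rose and 4 fell (53.8% called, against 24.6% of all genes). The groups did not overlap for 18 of the 26, with the 14 called ones among them, beside 28.6% of all genes. Of 8 enzymes that strip glycans, 4 rose and 2 fell (75% called, against 24.6% of all genes). Alpha-mannosidase (Man2b1), which degrades N-linked glycans, was 9.27, 9.24, 9.29 and 9.14 in KO hearts, against 8.80, 8.82, 8.72 and 8.76 in WT hearts. It rose by 0.46 (SE 0.05, adjusted p = 0.00014, limma), a 1.38-fold level. Beta-glucuronidase (Gusb) was 7.33, 7.26, 7.24 and 7.16 in KO hearts, against 6.74, 7.05, 6.82 and 6.78 in WT hearts. The rise of Gusb was 0.40 (SE 0.07, adjusted p = 0.00265), with WT replicate 2 closest to the KO hearts. Hexa, the alpha subunit of beta-hexosaminidase, rose by 0.39 (adjusted p = 0.000551) and alpha-galactosidase A (Gla) by 0.24 (adjusted p = 0.00487). Naglu, an enzyme of heparan sulfate breakdown, differed by 0.07 (adjusted p = 0.401).

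Acid alpha-glucosidase (Gaa) frees glucose from glycogen in the lysosome, and its loss in people causes Pompe disease, which affects the heart. Gaa was 9.02, 8.98, 8.86 and 8.96 in KO hearts, against 9.40, 9.43, 9.37 and 9.38 in WT hearts. It fell by 0.44 (SE 0.05, 95% interval -0.55 to -0.33, adjusted p = 0.00015, limma), to 0.736 of the WT level, and each KO heart was below each WT heart. Beta-galactosidase (Glb1), sialidase Neu1 and cathepsin A (Ctsa) work in 1 complex, in which Ctsa protects both partners. Glb1 was 7.44, 7.45, 7.31 and 7.15 in KO hearts, against 7.66, 7.68, 7.58 and 7.51 in WT hearts. It fell by 0.27 (SE 0.07, adjusted p = 0.0223), and the call was lost without KO replicate 3, WT replicate 1 or WT replicate 2 (adjusted p = 0.0545, 0.0599 and 0.0526). Neu1 differed by -0.13 (adjusted p = 0.0757) and Ctsa by -0.01 (adjusted p = 0.933). Neu1 was called lower under median centring (adjusted p = 0.0492), with genes below the median level left out (0.0411) and with array weights.

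Genes of lysosomal lipid handling were also divided. Acid lipase (Lipa), which cleaves cholesteryl esters and triglycerides, was 8.72, 8.73, 8.77 and 8.64 in KO hearts, against 8.21, 8.28, 8.38 and 8.27 in WT hearts. It rose by 0.43 (SE 0.05, adjusted p = 0.000259, limma). Cholesterol freed in the lysosome is bound by Npc2 in the lumen and handed to Npc1 in the membrane for export. Npc2 averaged 7.96 ± 0.05 in KO and 7.60 ± 0.05 in WT hearts (SD, n = 4), a rise of 0.36 (SE 0.05, adjusted p = 0.000469). Npc1 was 9.21, 9.19, 9.26 and 9.11 in KO hearts, against 9.56, 9.44, 9.61 and 9.54 in WT hearts. It fell by 0.34 (SE 0.05, adjusted p = 0.00127), so the 2 partners moved in opposite directions, each without overlap. Psap, the precursor of the saposins, differed by -0.05 (adjusted p = 0.441) and the palmitoyl-protein thioesterase Ppt1 by -0.11 (adjusted p = 0.149).

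Of the 8 general proteases, 2 rose and 1 fell (37.5% called, against 24.6% of all genes). Cathepsin F (Ctsf), a cysteine protease, was 7.20, 7.31, 7.30 and 7.29 in KO hearts, against 7.78, 7.68, 7.69 and 7.65 in WT hearts. The groups did not overlap, and Ctsf fell by 0.42 (SE 0.05, adjusted p = 0.000207, limma), to 0.745 of the WT level. Cathepsin L (Ctsl), a broad endopeptidase, averaged 10.35 ± 0.11 in KO and 10.04 ± 0.05 in WT hearts (SD, n = 4) and rose by 0.30 (SE 0.06, adjusted p = 0.0057). Cathepsin B (Ctsb) rose by 0.15 (SE 0.05, adjusted p = 0.0493), just past the threshold. Its call was lost without KO replicate 1, 2 or 3 or WT replicate 1, 3 or 4, at adjusted p-values of 0.0773 to 0.127. It was also lost under quantile normalisation (adjusted p = 0.0722), median centring (0.119) and with no filter on dim genes (0.0755). Ctsd, the main aspartic protease of the lysosome, differed by 0.05 (adjusted p = 0.486), Ctso by -0.06 (adjusted p = 0.602) and the tripeptidyl peptidase Tpp1 by -0.12 (adjusted p = 0.099).

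In the lysosomal membrane 2 of 5 genes rose and 0 fell (40% called, against 24.6% of all genes). Lamp1, a heavily glycosylated coat protein, averaged 10.75 ± 0.05 in KO and 10.51 ± 0.07 in WT hearts (SD, n = 4), a rise of 0.23 (SE 0.05, adjusted p = 0.00868, limma). Its relative Lamp2, whose loss in people causes Danon cardiomyopathy, differed by 0.04 (95% interval -0.08 to 0.15, adjusted p = 0.656). Scarb2, which carries glucocerebrosidase to the lysosome, rose by 0.18 (SE 0.05, adjusted p = 0.0328). That call was lost without KO replicate 1, 2 or 3 or WT replicate 2, 3 or 4, at adjusted p-values of 0.0502 to 0.0981. Under median centring it was lost as well (adjusted p = 0.0787). The calcium channel Mcoln1 differed by -0.12 (adjusted p = 0.164). The tetraspanin Cd63 differed by -0.23 (SE 0.11, adjusted p = 0.179), with the widest WT spread of any member (SD 0.26). Over the 12 general genes that were not called, differences ran from -0.23 to 0.07 and their 95% intervals from -0.47 to 0.18.

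**Figure D3:**
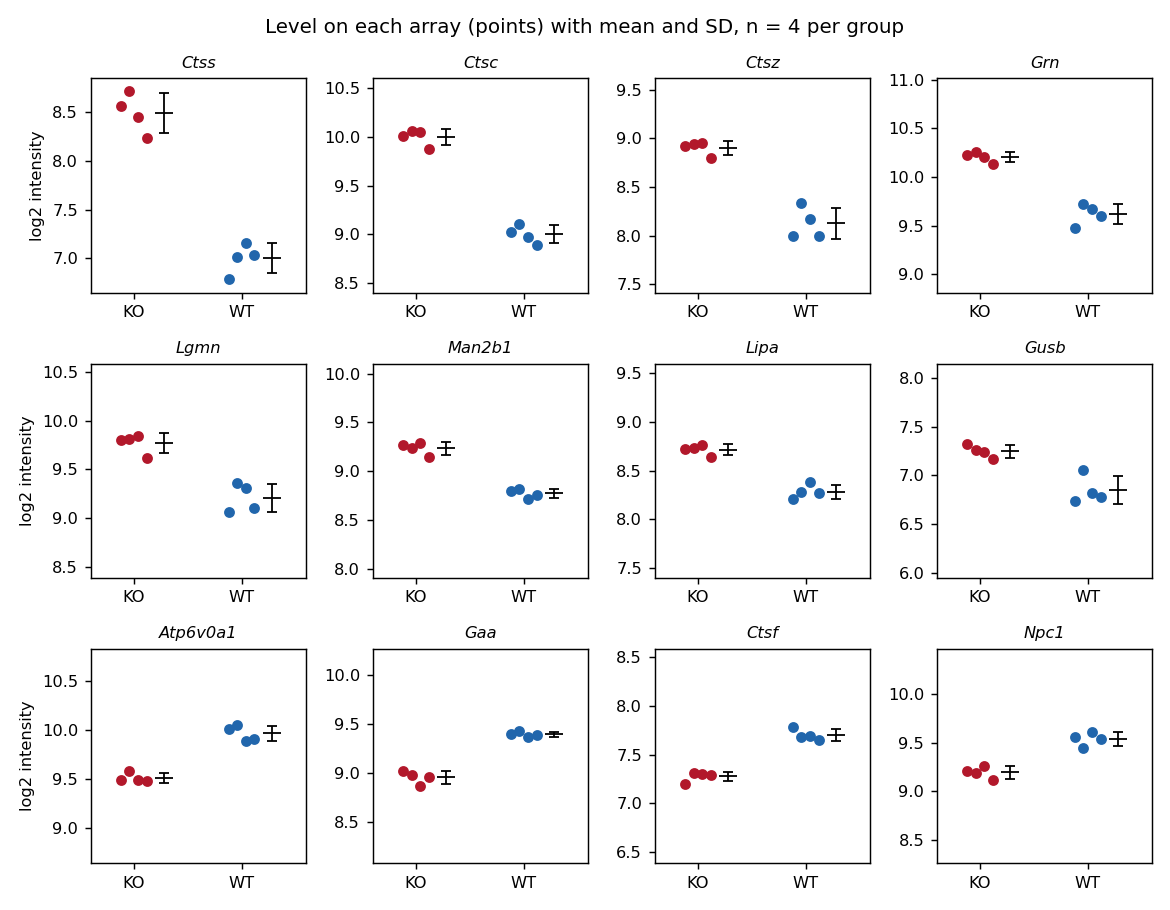
Log2 intensity of 12 members on each array (points, KO left of WT), with the mean and SD of the 4 arrays as bars. The 12 are the called members with the 8 largest rises and the 4 largest falls. Each panel spans the same range of log2 units. In all 12 the KO and WT arrays do not overlap, as in each of the 25 called members. The groups do not overlap for 32 of the 51 members tested, beside 28.6% of all genes.

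TCACGTGA is the core of the element read by TFEB, a transcription factor of lysosome genes, and contains the shorter E-box CACGTG. Either strand was searched in the same promoters. TCACGTGA was present in 7 of 44 members (15.9%), against 1.12% of all genes in the table, and CACGTG in 15 of 44 (34.1%), against 8.09%. Of the 7 members with TCACGTGA, 6 were not called and 1, Gla, rose, beside 49.0% of members and 24.6% of all genes called. With 7 genes, a relation of this motif to the calls was not tested. CACGTG was in the promoter of 3 of the 9 general genes that rose and had a promoter in the table, and of 3 of the 3 that fell. Counting only members with a promoter in the table, CACGTG was in 0 of the 3 pump genes that fell, and so in 3 of the 6 members that fell. Among those not called it was in 8 of 22 (36.4%). The promoters of Gaa, Ctsf and Glb1 are shown first, and then those of 2 members that were not called, with CACGTG or TCACGTGA in capitals.

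Gaa, chr11:119267797-119267856, + strand: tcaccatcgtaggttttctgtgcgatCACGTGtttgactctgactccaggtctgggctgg

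Ctsf, chr19:4855060-4855119, + strand: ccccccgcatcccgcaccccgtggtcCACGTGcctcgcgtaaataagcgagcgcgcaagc

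Glb1, chr9:114401004-114401063, + strand: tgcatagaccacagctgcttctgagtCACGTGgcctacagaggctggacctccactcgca

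Atp6v1a, chr16:44139358-44139417, - strand: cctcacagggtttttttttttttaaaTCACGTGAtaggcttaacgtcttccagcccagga

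Ctsa (the second of its 2 starts), chr2:164833734-164833772, + strand: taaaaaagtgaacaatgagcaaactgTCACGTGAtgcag

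Of the 19 proton pump genes tested beside Atp6v0d2, 1 rose and 4 fell, or 26.3% against 24.6% of all genes. The summed intensity of the 20 pump genes on the array, with Atp6v1g3 below the filter among them, was 6377 to 6874 in KO hearts, against 7192 to 7393 in WT hearts, without overlap. The mean log2 level over the 19 tested, which weights each alike, did overlap, at -0.05, -0.02, -0.08 and -0.10 in KO hearts, against 0.01, -0.00, 0.02 and -0.03 in WT hearts, relative to the WT mean. In V0 3 of 7 genes were called (42.9%) and in V1 2 of 12 (16.7%), beside 24.6% of all genes. In the membrane sector the a subunit, which forms the proton path with the c ring and steers the pump to its membrane, exists as 4 isoforms.

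Atp6v0a1 (a1) was 9.49, 9.58, 9.48 and 9.48 in KO hearts, against 10.01, 10.05, 9.89 and 9.91 in WT hearts. It fell by 0.46 (SE 0.05, 95% interval -0.58 to -0.34, adjusted p = 0.000198, limma), to 0.727 of the WT level, the largest fall of the set. Atp6v0a2 (a2) was 8.89, 8.91, 8.76 and 8.74 in KO hearts, against 9.15, 9.20, 9.06 and 9.10 in WT hearts. It fell by 0.30 (SE 0.06, adjusted p = 0.00375), and its dimmer cluster differed by -0.13. The a3 isoform, abundant in osteoclasts and macrophages, is encoded by Tcirg1, which the symbol rule did not take in. Tcirg1 averaged 7.79 ± 0.09 in KO and 7.40 ± 0.11 in WT hearts (SD, n = 4) and rose by 0.39 (SE 0.07, adjusted p = 0.00234). Atp6v0a4 (a4), the isoform of kidney and inner ear, differed by 0.15 (adjusted p = 0.0886, and 0.0445 without WT replicate 2).

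Among the d subunits, Atp6v0d1 differed by -0.07 (95% interval -0.20 to 0.07, adjusted p = 0.466, limma), beside the 0.29 of Atp6v0d2 given above. Atp6v0e2, a small membrane subunit, averaged 7.29 ± 0.07 in KO and 6.99 ± 0.20 in WT hearts (SD, n = 4) and rose by 0.30 (SE 0.09, adjusted p = 0.0365). The call was lost without any 1 of the KO replicates and without WT replicate 2 or 4, at adjusted p-values of 0.05 to 0.10. Its relative Atp6v0e differed by -0.02 (adjusted p = 0.836) and Atp6v0b by -0.05 (adjusted p = 0.675). The c subunit gene Atp6v0c was not analysed here.

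In the V1 sector 2 of 12 genes fell and 0 rose (16.7% called, against 24.6% of all genes). Atp6v1d, a subunit of the rotating stalk, was 9.50, 9.52, 9.55 and 9.37 in KO hearts, against 9.76, 9.63, 9.82 and 9.84 in WT hearts. It fell by 0.28 (SE 0.06, adjusted p = 0.00896, limma), without overlap. Atp6v1g2, the G subunit isoform best known from neurons, was 7.01, 6.95, 6.93 and 7.01 in KO hearts, against 7.14, 7.31, 7.32 and 7.24 in WT hearts. It fell by 0.28 (SE 0.05, adjusted p = 0.00443), while the widely expressed Atp6v1g1 differed by -0.07 (adjusted p = 0.341). The second cluster of Atp6v1g1 differed by 0.16. Of the B subunits, which help form the catalytic hexamer, Atp6v1b2 differed by -0.08 and the kidney isoform Atp6v1b1 by -0.12 (adjusted p = 0.503 and 0.302). The catalytic A subunit Atp6v1a differed by 0.08 (adjusted p = 0.484), and the regulatory subunit Atp6v1h by 0.09 (adjusted p = 0.393). Atp6v1c1 and Atp6v1e1 both differed by -0.11, and Atp6v1f by 0.06, with 0.24 in its dimmer cluster. Of the restricted isoforms, Atp6v1c2 and Atp6v1e2 differed by 0.02 and 0.04, and Atp6v1g3 lay below the filter. Over the 14 pump genes that were not called, the 95% intervals ran from -0.28 to 0.29.

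**Figure D4:**
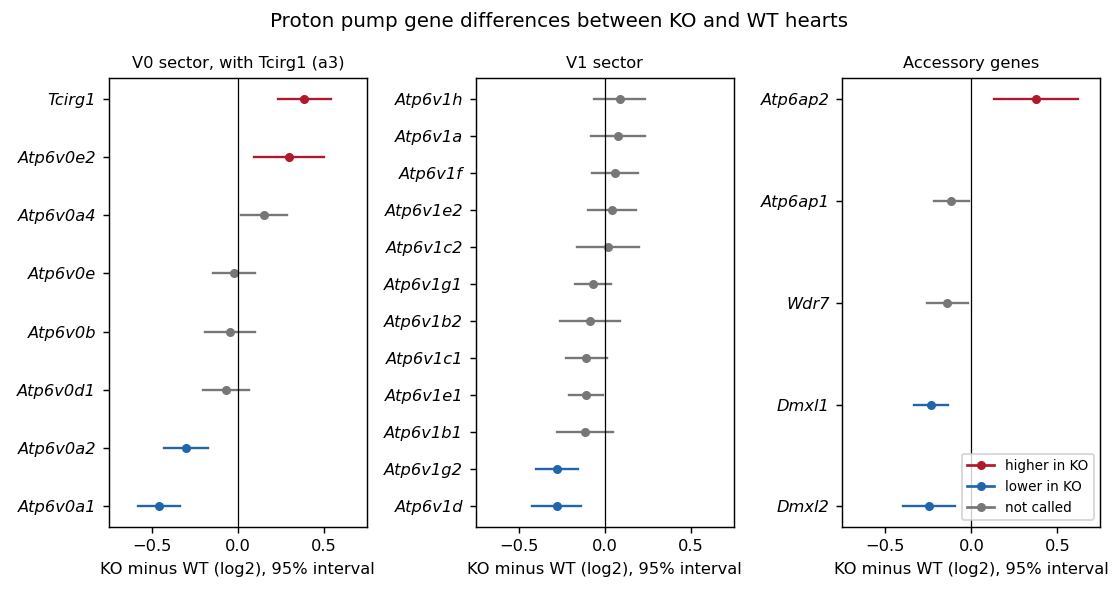
Differences of the pump genes of the V0 sector with Tcirg1, of the V1 sector and of accessory genes, as KO minus WT log2 values, with 95% intervals from limma. The a1 and a2 genes lie at -0.46 and -0.30 and the a3 gene Tcirg1 at 0.39, and 10 of the 12 V1 genes were not called. The share of V1 genes called was 16.7%, beside 24.6% of all genes.

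Other genes of the lysosome were taken from 6 further lists, in which 17 of 80 tested rose and 14 fell (38.8%, against 24.6% of all genes), with a median of -0.03. Among other hydrolases 8 of 24 rose and 4 fell (50% called). The sulfatase Arsb rose by 0.52 (adjusted p = 0.000325, limma), the serine carboxypeptidase Scpep1 by 0.48 and the DNase Dnase2a by 0.37, while Plbd2 fell by 0.35 on the log2 scale. Among membrane proteins and transporters 2 of 16 rose, and both are macrophage or leukocyte genes: Cd68 (1.46) and Laptm5 (1.45, adjusted p = 3.92e-06). In this list 5 fell, among them Laptm4b (-0.48) and Ostm1 (-0.30), and 43.8% were called. Of 12 sorting genes 16.7% were called: the receptor gene Sort1 rose by 0.56 (adjusted p = 0.00274) and the adaptor gene Gga2 fell by 0.45. The other 10, with the mannose 6-phosphate receptor Igf2r among them (-0.08, named after its values were seen), were not called.

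Of 7 genes of cysteine cathepsin inhibitors on the array, 3 passed the filter on dim genes and 2 of these rose (66.7%, against 24.6% of all genes). Cst3, the secreted inhibitor cystatin C, rose by 0.29 (SE 0.05, adjusted p = 0.00127, limma), and the cytosolic inhibitor Cstb rose by 0.23 (SE 0.07, adjusted p = 0.0378). The call of Cstb was lost without any 1 of the KO replicates and without WT replicate 3 or 4, at adjusted p-values of 0.0549 to 0.0976. It was also lost under median centring (adjusted p = 0.0612) and with no filter on dim genes (0.0519). Cst6, named after its values were seen, was not called. Of 6 other pump genes 66.7% were called: Tcirg1 and Atp6ap2 (0.38) rose, and the assembly factors Dmxl1 (-0.23) and Dmxl2 (-0.25) fell. The call of Atp6ap2 was lost without KO replicate 1, 2 or 3 or WT replicate 1, 2 or 3 (adjusted p = 0.0509 to 0.0832), and that of Dmxl2 without KO replicate 1 or 3 or WT replicate 3 or 4 (adjusted p = 0.0514 to 0.0644).

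Among 19 regulators of lysosome genes and of nutrient signalling at the lysosome, 2 rose and 2 fell (21.1% called, against 24.6% of all genes). Tfeb was 7.57, 7.45, 7.41 and 7.56 in KO hearts, against 7.83, 7.75, 7.82 and 7.70 in WT hearts. It fell by 0.28 (SE 0.06, adjusted p = 0.00453, limma), without overlap. Tfec, a member of the same factor family known from macrophages in mice, averaged 5.46 ± 0.22 in KO and 4.47 ± 0.08 in WT hearts (SD, n = 4). It rose by 0.99 (SE 0.10, adjusted p = 7.10e-05), and it passed the filter on dim genes, set at 4.50, only through its KO values. The other family members Tfe3 (0.07) and Mitf (-0.06), named after their values were seen, were not called (adjusted p = 0.666 and 0.455). Fnip1, a partner of folliculin, rose by 0.56 (adjusted p = 0.000252), and Lamtor4, a subunit of the lysosomal anchor of mTORC1, fell by 0.21 (adjusted p = 0.00925).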

How the data were processed

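Total RNA of 8 hearts was hybridised to Affymetrix arrays. The deposited table holds 1 intensity per transcript cluster and array, for 27541 clusters. The submitters' processing notes name Partek and RMA without versions. The intensities deposited by the authors are on a linear scale (3.57 to 16629). The sources used here name no genome build and no scan batches. No further normalisation was applied.

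Clusters were named through the platform annotation: 21631 had 1 symbol, 1317 several and 4593 none. The brightest cluster per gene was kept (19933 genes), and those with a mean over the 8 arrays below the 25th percentile (log2 4.50) were removed, leaving 14950. The test on log2 values was limma's moderated test (version 3.58.1, R 4.3.3), two-sided. Each gene had 6 residual degrees of freedom, to which limma adds prior ones estimated from all genes tested. P-values weigh each difference against the spread between these hearts, moderated over all genes tested. P-values were adjusted over all genes tested. All 53 member names matched the RefSeq gene table. The number of arrays limits the precision. The test was checked on simulated data.

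The members, lists and tests were chosen with earlier results of these data known. Values on each array are given for the 8 largest rises and 8 falls among called members, 4 macrophage markers, Hdac3 and Tfeb, and for Atp6v0d2. Of each further list up to 4 called genes with the smallest p are named. The replicate numbers did not pair the arrays: deviations of equal numbers correlated at -0.0384 to 0.0757, across genes. Figures used matplotlib 3.10.9.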

Additional observations from a re-analysis of the deposited data

Results flagged for a closer look

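A sample was flagged where its gap to the nearest of the other 3 in its group was above Dixon's 95% critical value as a share of the group's range. Of 174 groups of 4 examined, 9 were flagged, and chance flags about 1 in 20. KO replicate 4 was low in 5 of these: Ctso at 7.69 (7.94 to 7.95 in the other KO hearts), Lamp1 at 10.67 (10.77 to 10.78), Laptm5 at 9.64 (9.85 to 9.86), Hdac3 at 8.50 (8.59 in the others), and the mean over macrophage markers at 1.02 above WT (1.24 to 1.27). Atp6v0a1 was high in KO replicate 2, at 9.58 (9.48 to 9.49 in the other KO hearts). WT replicate 1 was low for Atp6v0d1, at 8.17 (8.27 to 8.28 in the other WT hearts). WT replicate 2 was high for Atp6v1a, at 7.96 (7.74 to 7.78), and low for Atp6v1b2, at 9.58 (9.68 to 9.70). Without KO replicate 4 the macrophage-type genes still counted 6 higher, and the general genes 10 higher and 4 lower.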

How the results depend on the processing

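Under 16 alternatives (scaling, filter, variance model, array weights, averaged clusters, the replicate number as a block, each array left out), 21 of the 25 called members kept their call wherever they were tested (Gla, dim, was not tested with genes below the median level left out) and none of the 25 changed sign. The exceptions were Ctsb, Scarb2, Glb1 and Atp6v0e2, called in 6, 8, 13 and 10 of the 16 alternatives, and the cause was not tested. The macrophage-type genes counted 6 or 7 higher and 0 lower throughout. The general genes counted 8 to 10 higher and 3 to 5 lower, and the pump genes 4 lower throughout. The pump count higher was 2 with array weights, and 0 to 1 when single arrays were left out. Of the 26 members not called, 2 were called in some alternatives: Neu1 in 3 of 16 and Atp6v0a4 in 2 of 15. With the replicate block the counts were 6 higher (macrophage-type), 8 higher and 4 lower (general), and 1 higher and 4 lower (pump), and the calls of Ctsb (adjusted p = 0.0829), Scarb2 (0.0538), Cstb (0.0722) and Dmxl2 (0.0589) were lost. Members that changed sign were uncalled and near 0: Atp6v1c2 was -0.00465 under quantile normalisation and -0.00349 under median centring, Ctsa 0.0230 with array weights and Atp6v1g1 0.0462 with averaged clusters. Leaving out single arrays gave -0.0530 to 0.0685 for Atp6v1c2, -0.0231 to 0.0126 for Ctsa, -0.0787 to 0.00505 for Ctso, -0.0934 to 0.0553 for Ctsk and -0.0533 to 0.00724 for Atp6v0e. The median difference of the general genes, near 0, was -0.00106 under quantile normalisation, -0.00741 under median centring and -0.00810 with genes below the median level left out. Detection calls were not analysed here, so dim genes such as Atp6v0d2 and Atp6v1g3 cannot be set against background.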
